A study of Mus musculus with 12 samples.

Results

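The p53 target genes described here are 36 genes listed as switched on by the transcription factor p53. Whether each of them responds to p53 in mouse tumors was not tested. They were taken by gene symbol from a list of established targets, and they are 36 of the 18193 genes that a single-symbol probe set of the array measures. The choice was made with earlier results of these data known. Each gene is represented by the probe set (a group of short probes for one transcript) with the highest mean log2 intensity over all samples. By role, 4 members act back on p53, 6 belong to cell cycle arrest, 14 to cell death, 5 to DNA repair and 7 to other responses.

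RNA was measured in 12 whole tumors, each on its own 1-colour Affymetrix array, in 4 groups of 3. The tumors were Lewis lung carcinoma (LLC), an established mouse lung cancer line, grown subcutaneously in female C57BL/6 mice, right flank, that were 6 to 8 weeks old. The groups were 1D11_radiation (the antibody 1D11 with radiation), radiation (the antibody 13C4 with radiation), 1D11 (1D11 alone) and control (13C4 alone), so every animal received an antibody. 1D11 neutralises TGF-beta, and 13C4 serves as the isotype control for it. The sample characteristics give 5 fractions of 6 Gy for both irradiated groups, whereas the sample descriptions give 2 Gy, and the time between the last fraction and collection on day 19 is not given in the sources used here. Groups were drawn at random once tumors measured 60 to 80 mm3, and each tumor holds host cells beside LLC cells. The labels do not say that each array is a different mouse, so p-values measure the spread between these samples. Of 5 markers of carcinoma and mesenchymal tumor cells, Krt8 was at 11.70 to 12.64 and Krt18 at 11.67 to 12.42 log2 intensity over the 12 tumors. Vim was at 14.35 to 14.45, Epcam at 6.83 to 7.43 and Cdh1 at 3.8 to 7, with a Cdh1 mean of 4.85. The part of LLC cells in these whole-tumor values was not measured.

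p53 is a DNA-damage-activated transcription factor. After ionizing radiation, kinases such as ATM and CHK2 release it from its inhibitor MDM2, and it binds a response element made of a pair of half-sites near its targets. The targets halt the cell cycle (p21, encoded by Cdkn1a), trigger apoptosis (Noxa, Puma, death receptors), aid repair, and include Mdm2 itself, which closes a negative feedback loop. The gene that encodes p53, Trp53, and the targets Bax, Gdf15 and Fdxr lack a single-symbol probe set and were left out.

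The promoters of several members hold letters that fit the p53 half-site, a motif of 10 bases that reads the same on both strands, so a single scan covers both. In RefSeq's promoter table for the mouse build GRCm38.p6, 28 of the 36 members had an entry, with 37 windows in all. Ddb2, Perp, Pmaip1, Rrm2b, Tnfrsf10b, Trp53inp1, Xpc and Zmat3 had none. Within 250 bases before the annotated start, 11 of the 28 (39.3%) held at least 1 half-site, against 8.2% of the 27025 genes in the table and 7.13% of its 32851 windows. The members were picked as p53 targets, so these shares are a description. A pair of half-sites at most 13 bases apart was found in 1 member window, that of Cdkn1a, and in 21 (0.0639%) of all windows. The windows of 5 members are printed, 5′ to 3′ on the gene's strand with the half-sites in capitals, because their genes carry the values described next: Cdkn1a for arrest, Mdm2 and Ccng1 for feedback, Aen for death and Sesn1 for the only member called lower.
Cdkn1a, chr17:29090729-29090978, plus strand: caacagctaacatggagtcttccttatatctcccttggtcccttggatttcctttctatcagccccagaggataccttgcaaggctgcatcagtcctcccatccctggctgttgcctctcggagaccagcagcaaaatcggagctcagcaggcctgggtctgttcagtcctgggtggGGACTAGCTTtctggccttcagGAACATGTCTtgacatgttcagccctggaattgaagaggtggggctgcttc
Mdm2, chr10:117710759-117711008, minus strand: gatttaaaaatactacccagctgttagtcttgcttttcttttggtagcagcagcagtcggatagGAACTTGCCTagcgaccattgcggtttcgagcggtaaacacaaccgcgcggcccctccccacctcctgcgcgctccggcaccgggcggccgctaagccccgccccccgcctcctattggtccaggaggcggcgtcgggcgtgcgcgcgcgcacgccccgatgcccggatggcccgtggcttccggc
Ccng1, chr11:40755287-40755536, minus strand: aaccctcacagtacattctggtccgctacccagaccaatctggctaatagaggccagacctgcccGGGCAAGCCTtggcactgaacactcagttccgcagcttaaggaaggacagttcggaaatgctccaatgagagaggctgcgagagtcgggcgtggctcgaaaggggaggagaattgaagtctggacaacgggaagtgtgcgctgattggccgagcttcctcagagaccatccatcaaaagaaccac
Aen, chr7:78895808-78896057, plus strand: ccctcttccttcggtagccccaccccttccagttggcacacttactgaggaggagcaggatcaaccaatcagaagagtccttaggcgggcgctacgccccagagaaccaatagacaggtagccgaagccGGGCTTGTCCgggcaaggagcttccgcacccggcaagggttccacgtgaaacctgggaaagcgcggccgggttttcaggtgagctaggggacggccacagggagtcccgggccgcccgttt
Sesn1, chr10:41887189-41887438, plus strand: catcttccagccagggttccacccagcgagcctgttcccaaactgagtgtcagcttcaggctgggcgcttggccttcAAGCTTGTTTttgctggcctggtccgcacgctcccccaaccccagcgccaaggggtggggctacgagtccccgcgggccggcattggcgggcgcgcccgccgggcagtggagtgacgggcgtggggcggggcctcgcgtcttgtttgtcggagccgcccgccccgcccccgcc

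In the Cdkn1a window the half-sites GGACTAGCTT and GAACATGTCT began 73 and 51 bases before this start, with 12 bases between them. The letters tgacatgttc that directly follow GAACATGTCT begin with a T where the motif allows only A or G, so they are not marked. RefSeq gives 5 of the members with a match another start whose window held none, 2790 bases away in Cdkn1a, 131 in Aen, 76865 in Sesn1, 23392 in Polk and 327 in Rps27l. In Mdm2 the site GAACTTGCCT began 186 bases before the start, in Ccng1 GGGCAAGCCT 185 bases before it, in Aen GGGCTTGTCC 121 bases before it and in Sesn1 AAGCTTGTTT 173 bases before it. The other members with a match were Ei24 (GGGCATGCCC, 10 bases before the start), Gadd45a (GGGCTAGCCC, 40 bases), Ppm1d (GAGCTTGCTC, 132 bases), Ier5 (GAGCTTGCTC, 166 bases), Polk (GAACTAGCCT, 231 bases) and Rps27l (AGACTTGTCC at 107 and GGGCTTGCTT at 210 bases). A match describes the letters of this window only, and p53 response elements often lie in introns outside it. The scan took exact matches only, so it misses half-sites with a mismatch, and a marked pair need not be the element that p53 binds.

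**Figure D1:**
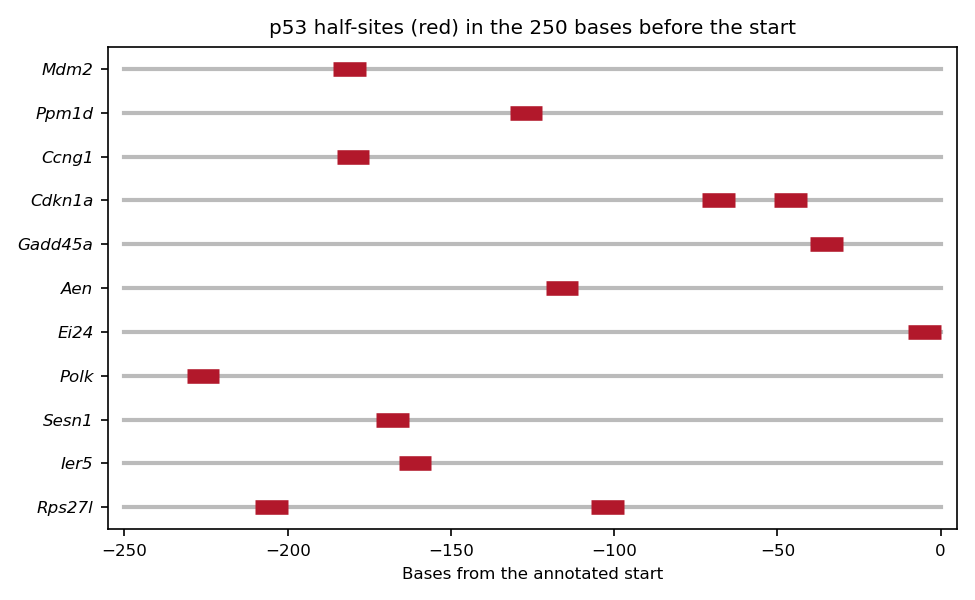
Position of p53 half-sites (red) in the 250 bases before the annotated start of the 11 members that hold one; the horizontal axis is the distance from the start in bases. Cdkn1a has its 2 sites close together, beginning 73 and 51 bases before the start, and Rps27l has 2 sites farther apart.

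Of the 36 members, 34 passed the filter on low values, a mean log2 intensity of at least 5.37 over all samples. Perp and Trp73 lay under it. A tumor labelled control replicate 1 stood apart and bears on every comparison with the control group: it was the lowest of the 12 tumors for 24 of the 34 members, against 15.8% of all tested genes. Its mean centred log2 intensity over the 34 members was -0.53, against -0.08 and -0.02 in the other control tumors. Its skeletal muscle marker score was 1.25 against -0.87 and -1.23 in the other controls, limma gave it the lowest array weight (0.297), and the part of these in the results was not tested. Lif lay 1.58, Pmaip1 1.51, Cdkn1a 1.32 and Trp53inp1 1.28 below the mean of control replicates 2 and 3 in this tumor, all on the log2 scale. Without it the change over both antibodies moved by over 1.5 times in 14 of the 34 members, nearer to 0 in 12 of them, and those values are given beside the full ones. In radiation against control tumors 26 of the 34 changes moved that far, 21 of them nearer to 0, and 2 changed sign. The radiation effect under 1D11 minus that under 13C4 moved that far in 27, nearer to 0 in 19, and changed sign in 7.

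**Figure D2:**
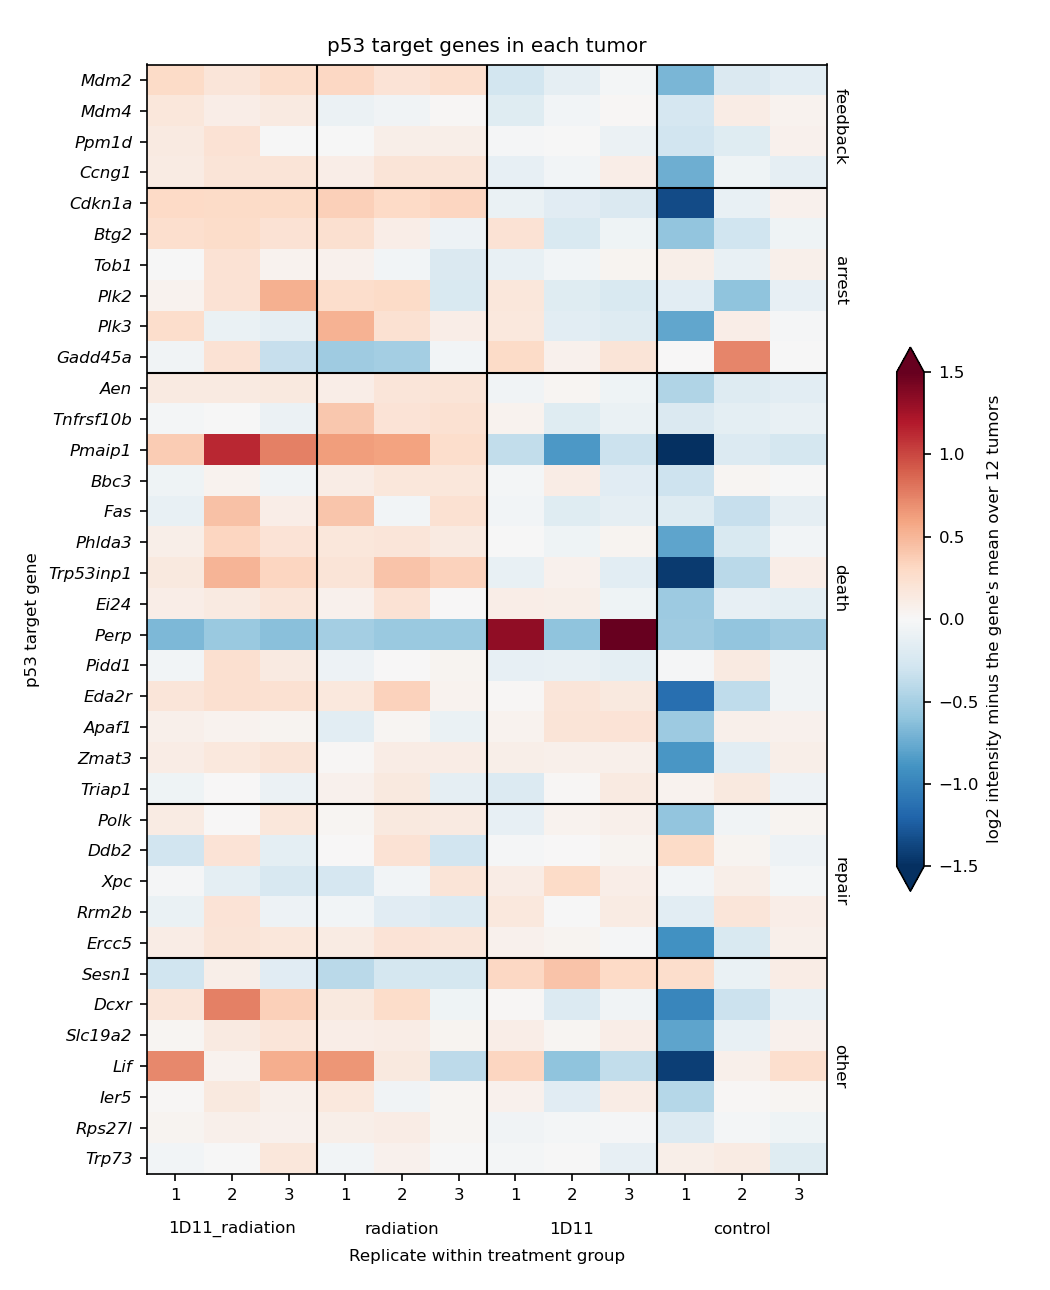
All 36 members (rows, by role) in the 12 tumors (columns, by group); colour is log2 intensity minus the gene's mean over the tumors, limited to 1.5 either way. The column of control replicate 1 is the lowest for 24 of the 34 members that were tested, and Perp is high in 1D11 replicates 1 and 3 only.

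Irradiated tumors had more of the p53 inhibitor Mdm2, the apoptotic nuclease Aen, the BH3-only death gene Pmaip1 (Noxa), the death receptor gene Tnfrsf10b and the carbonyl reductase gene Dcxr than unirradiated tumors, and less Sesn1. These were the 6 members called when the 6 irradiated tumors were set against the 6 unirradiated ones over both antibodies (limma, Benjamini-Hochberg adjusted p under 0.05 over the 12735 genes tested). Over all tested genes 7.26% were called, 3.39% as higher and 3.87% as lower, against 5 of 34 members higher and 1 lower. Of the 34 members 27 were higher in irradiated tumors, with a median log2 change of 0.23, whereas 45.3% of all genes were higher, with a median of -0.01. Pmaip1 had the largest change among the called members, 1.26 ± 0.25 (log2 change ± SE), or 2.39-fold. Tnfrsf10b was higher under 13C4 (0.44) and near 0 under 1D11 (0.04). Over 19 alternative ways of processing, Dcxr lost its call in 11 and Tnfrsf10b in 8. With control replicate 1 left out the count was 9 higher and 1 lower, against 7.62% of all genes called, and the median was 0.15. In whole tumors, fewer cells of a type and less RNA per cell cannot be told apart.

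In 9 members every irradiated tumor lay above every unirradiated tumor: Mdm2, Ccng1, Cdkn1a, Aen, Pmaip1, Phlda3, Trp53inp1, Ercc5 and Rps27l, against 1.95% of all tested genes. No member lay the other way in all 12 tumors, against 2.41% of all genes. Between radiation and control tumors, 15 members did not overlap and were higher and 2 were lower, against 10.6% and 10.0% of all genes. Between 1D11_radiation and 1D11 tumors, the counts were 16 higher and 2 lower, against 9.59% and 16.5%.

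**Figure D3:**
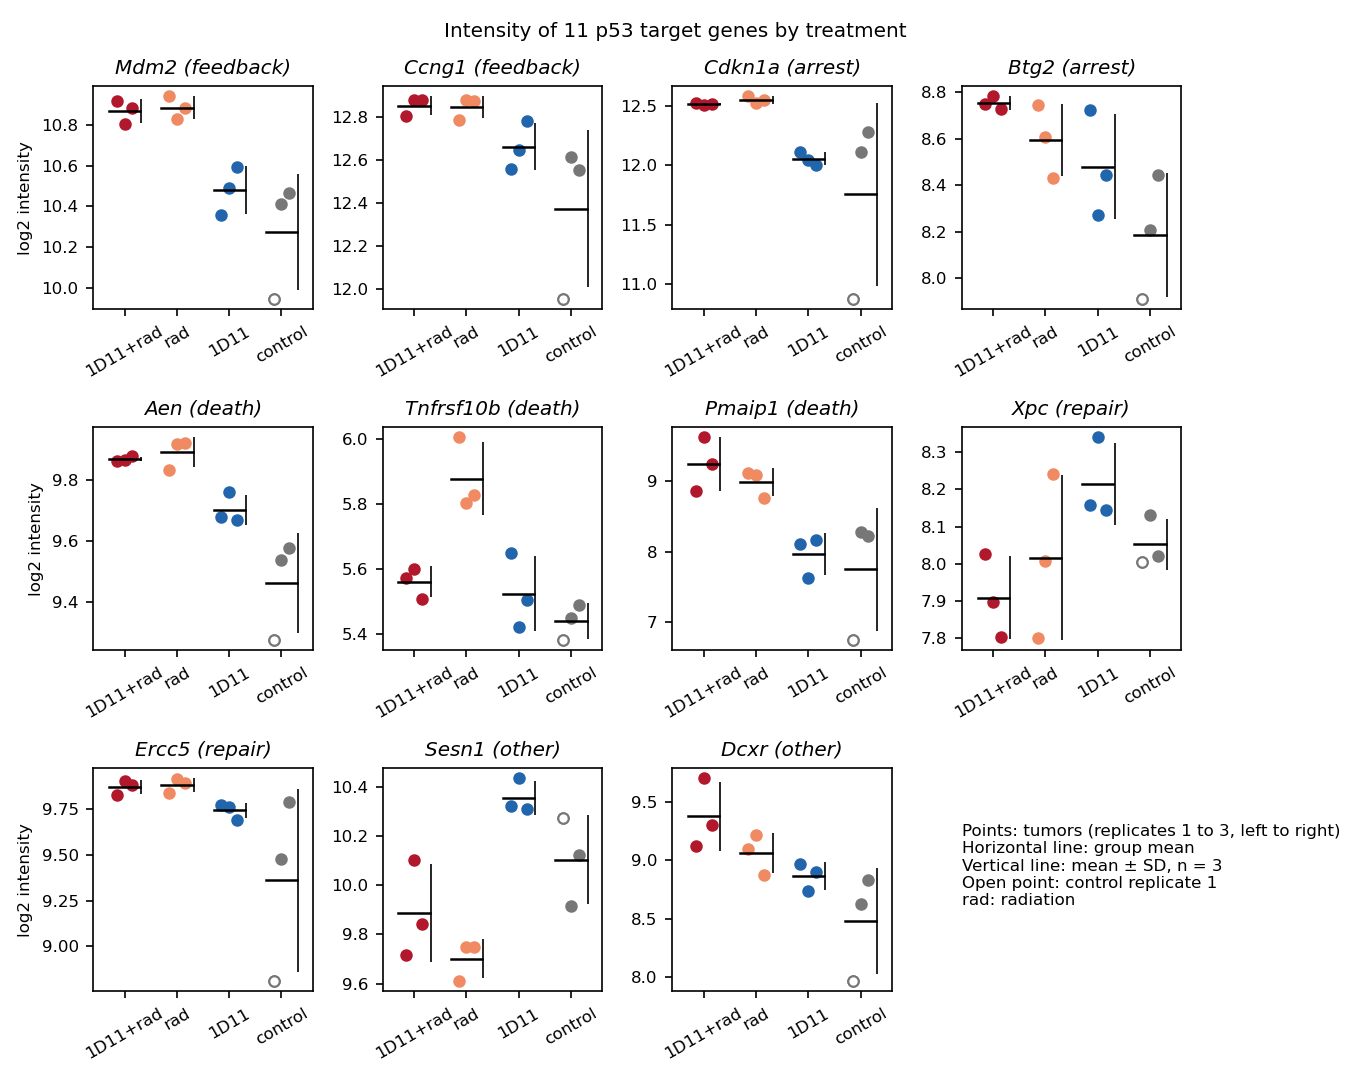
Log2 intensity of 11 members in each tumor (points), with group means (horizontal lines) and ± SD (vertical lines, n = 3). In Mdm2, Ccng1, Cdkn1a, Aen, Pmaip1 and Ercc5 all 6 irradiated tumors lie above all 6 unirradiated tumors; the open point is control replicate 1.

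Among the feedback genes, Mdm2 encodes the ubiquitin ligase that marks p53 for degradation (GRCm38.p6 chr10, 117688875 to 117710758). Mdm2 had 10.92, 10.80 and 10.89 log2 intensity in the 1D11_radiation tumors and 10.94, 10.83 and 10.88 in the radiation tumors, against 10.36, 10.49 and 10.59 in the 1D11 tumors and 9.94, 10.41 and 10.47 in the control tumors. The irradiated tumors of both antibodies sat in a narrow band above all unirradiated ones. Group means were 10.87 ± 0.06 in 1D11_radiation, 10.89 ± 0.06 in radiation, 10.48 ± 0.12 in 1D11 and 10.27 ± 0.29 in control tumors (SD, n = 3 each). Over both antibodies Mdm2 rose by 0.50 ± 0.09 (1.42-fold, adjusted p = 0.00921, limma), and it rose under 13C4 alone by 0.61 ± 0.12 (adjusted p = 0.0294). Under 1D11 its change was 0.39 ± 0.12 and did not pass (adjusted p = 0.165), but without control replicate 1, which enters that fit only through the shared spread, the same 0.39 had an SE of 0.07 and passed (adjusted p = 0.0339).

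Ccng1, which encodes cyclin G1, a protein that brings a phosphatase to MDM2 (chr11, 40748552 to 40755309), had 12.80, 12.88 and 12.88 in the 1D11_radiation tumors and 12.79, 12.88 and 12.87 in the radiation tumors. It had 12.56, 12.65 and 12.78 in the 1D11 tumors and 11.95, 12.62 and 12.55 in the control tumors. The 6 irradiated tumors were again above the rest, though 1D11 replicate 3 came close to the lowest of them. The change over both antibodies was 0.33 ± 0.10 (adjusted p = 0.0717). Ccng1 rose without control replicate 1, by 0.23 ± 0.05 (adjusted p = 0.0275). Ppm1d, the phosphatase WIP1 that takes phosphates off p53 and its kinases, had 0.17 ± 0.07 (adjusted p = 0.128), and Mdm4, the partner of MDM2 that masks the activating domain of p53, 0.09 ± 0.07 (adjusted p = 0.433; 0.04 ± 0.05 without that tumor). All 4 feedback genes were higher in irradiated tumors, against 45.3% of all genes, with Mdm2 called, against 3.39% called higher.

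Of the 6 arrest genes 5 were higher in irradiated tumors, against 45.3% of all genes, and none was called with all tumors, at a median of 0.32. By unadjusted p under 0.05, 3 were higher and 1 lower, against 10.8% and 13.6% of all genes. Cdkn1a encodes p21, the inhibitor of cyclin-dependent kinases (chr17, 29090979 to 29100722). It had 12.52, 12.51 and 12.51 in the 1D11_radiation tumors and 12.58, 12.52 and 12.54 in the radiation tumors, against 12.11, 12.04 and 12.004 in the 1D11 tumors and 10.88, 12.11 and 12.28 in the control tumors. The irradiated tumors spanned 0.07 in all and lay above every unirradiated tumor, among which control replicate 1 was far below the others. Group means were 12.51 ± 0.01, 12.55 ± 0.03, 12.05 ± 0.06 and 11.76 ± 0.77 in the same order of groups (SD, n = 3 each). The change over both antibodies was 0.63 ± 0.19 (adjusted p = 0.072). The change and its error were smaller without control replicate 1: Cdkn1a rose by 0.41 ± 0.05 over both antibodies (adjusted p = 0.00297), by 0.46 ± 0.06 under 1D11 (adjusted p = 0.0164) and by 0.35 ± 0.07 under 13C4 (adjusted p = 0.0283).

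Btg2, an antiproliferative gene whose protein speeds the removal of mRNA poly(A) tails (chr1, 134074865 to 134079155), had 8.75, 8.78 and 8.73 in the 1D11_radiation tumors and 8.74, 8.61 and 8.43 in the radiation tumors. It had 8.72, 8.27 and 8.44 in the 1D11 tumors and 7.91, 8.21 and 8.44 in the control tumors. The 1D11_radiation tumors were the tightest, and the radiation tumors overlapped the unirradiated ones. Its change over both antibodies was 0.34 ± 0.10 (adjusted p = 0.0635). The polo-like kinase genes Plk2 (0.38 ± 0.13, adjusted p = 0.0993) and Plk3 (0.29 ± 0.15, adjusted p = 0.269) and the Btg2 relative Tob1 (0.02 ± 0.07) did not pass, and Plk3 had 0.16 ± 0.11 and Tob1 0.04 ± 0.07 without control replicate 1. Gadd45a, a stress sensor that slows the cell cycle at the G2 stage, had -0.43 ± 0.15 (adjusted p = 0.105), and in radiation against control tumors -0.61 ± 0.21 (adjusted p = 0.154). Gadd45a is named here after its values were seen: it had 10.70, 10.72 and 11.19 in the radiation tumors and 11.25, 11.97 and 11.23 in the control tumors, which do not overlap.

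Of the 14 death genes 13 were tested, and 11 were higher in irradiated tumors, against 45.3% of all genes. Pmaip1, Aen and Tnfrsf10b rose, against 3.39% of all genes. Pmaip1 encodes Noxa, which binds and disables the survival protein MCL1 (chr18, 66458604 to 66465558). Pmaip1 had 8.87, 9.63 and 9.25 in the 1D11_radiation tumors and 9.11, 9.10 and 8.76 in the radiation tumors, against 8.12, 7.63 and 8.17 in the 1D11 tumors and 6.75, 8.28 and 8.22 in the control tumors. All irradiated tumors lay at least 0.48 above the highest unirradiated one, and control replicate 1 was the lowest. Pmaip1 rose by 1.26 ± 0.25 over both antibodies (adjusted p = 0.0156), and by 1.01 ± 0.15 without control replicate 1 (adjusted p = 0.00577). Under 1D11 it had 1.28 ± 0.35 (adjusted p = 0.134; 1.28 ± 0.19 and adjusted p = 0.0215 without that tumor), and under 13C4 1.24 ± 0.35 (adjusted p = 0.0916; 0.74 ± 0.22 and adjusted p = 0.0949 without it).

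Aen, a nuclease that digests DNA and RNA during apoptosis (chr7, 78895927 to 78911209), had 9.86, 9.86 and 9.88 in the 1D11_radiation tumors and 9.83, 9.92 and 9.92 in the radiation tumors. It had 9.68, 9.76 and 9.67 in the 1D11 tumors and 9.27, 9.54 and 9.58 in the control tumors. The groups formed 3 levels, with both irradiated groups together at the top, the 1D11 tumors below them and the control tumors lowest. The step from control to 1D11 tumors, 0.24 ± 0.08, did not pass (adjusted p = 0.226, limma). Of all genes 12.1% were higher in 1D11 than in control tumors without overlap. Aen rose by 0.30 ± 0.06 over both antibodies (adjusted p = 0.0128) and by 0.43 ± 0.08 under 13C4 (adjusted p = 0.0239). Under 1D11 it had 0.17 ± 0.08 (adjusted p = 0.345).

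Tnfrsf10b encodes the mouse receptor of the death ligand TRAIL (chr14, 69767472 to 69784411). Tnfrsf10b had 5.57, 5.60 and 5.51 in the 1D11_radiation tumors and 6.00, 5.80 and 5.83 in the radiation tumors. It had 5.65, 5.42 and 5.50 in the 1D11 tumors and 5.38, 5.45 and 5.49 in the control tumors, so the 3 radiation tumors stood above the other 9. All of these values lie close to the filter on low values. It rose by 0.44 ± 0.08 in radiation against control tumors (adjusted p = 0.0223), and had 0.04 ± 0.08 in 1D11_radiation against 1D11 tumors (adjusted p = 0.88). The test of the difference between these radiation effects gave -0.40 ± 0.11 at an unadjusted p of 0.00386 and did not pass (adjusted p = 0.4). A second probe set of Tnfrsf10b had 0.16 ± 0.12 in radiation against control tumors (adjusted p = 0.628 in a fit over all probe sets).

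Among the remaining death genes, the change over both antibodies was 0.65 ± 0.20 for Trp53inp1, a nuclear stress protein that promotes p53 phosphorylation, 0.36 ± 0.11 for Phlda3, an AKT inhibitor, and 0.34 ± 0.10 for the death receptor gene Fas (adjusted p from 0.0624 to 0.076). Without control replicate 1, Phlda3 (0.26 ± 0.06, adjusted p = 0.0253) and Trp53inp1 (0.44 ± 0.10, adjusted p = 0.0293) rose. Eda2r, an ectodysplasin receptor (0.41 ± 0.15), Ei24, a membrane protein of the endoplasmic reticulum (0.23 ± 0.08), Zmat3, an RNA-binding protein (0.23 ± 0.13), and Bbc3, which encodes the BH3-only protein Puma (0.13 ± 0.07), were higher and did not pass. With control replicate 1 left out, Eda2r had 0.25 ± 0.07, Zmat3 0.09 ± 0.05 and Bbc3 0.07 ± 0.06. Pidd1, a scaffold for caspase activation, had 0.10 ± 0.06. Apaf1, the apoptosome core (-0.02 ± 0.10), and Triap1, an inhibitor of apoptosis (-0.02 ± 0.07), were near 0, and Apaf1 had -0.12 ± 0.05 without that tumor.

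Perp, a desmosome protein that p53 induces during apoptosis, is named here after its values were seen. It had 3.66, 3.78 and 3.72 in the 1D11_radiation tumors and 3.83, 3.78 and 3.78 in the radiation tumors, 5.67, 3.73 and 8.74 in the 1D11 tumors, and 3.80, 3.75 and 3.81 in the control tumors. It was high in 1D11 replicates 1 and 3 and at the array's low end in the other 10. The keratinocyte markers moved with it: 7 of 8 were measured, and their summed intensity was 497 to 542 in the 1D11_radiation, 521 to 555 in the radiation, 519 to 3147 in the 1D11 and 511 to 582 in the control tumors. The score of these markers was 0.87 and 1.91 in 1D11 replicates 1 and 3, and their part in the Perp values was not tested.

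Of the 5 repair genes 2 were higher in irradiated tumors, against 45.3% of all genes, and none was called, with a median of -0.09. By unadjusted p under 0.05, 1 of the 5 was higher and 1 lower, against 10.8% and 13.6% of all genes. Ercc5 encodes XPG, a nuclease of nucleotide excision repair (chr1, 44146948 to 44181260). It had 9.83, 9.90 and 9.88 in the 1D11_radiation tumors and 9.84, 9.91 and 9.89 in the radiation tumors, against 9.78, 9.76 and 9.69 in the 1D11 tumors and 8.81, 9.48 and 9.79 in the control tumors. The groups did not overlap, but the highest control tumor was 0.04 below the lowest irradiated one. The change was 0.32 ± 0.13 (adjusted p = 0.148), and 0.19 ± 0.06 without control replicate 1 (adjusted p = 0.0811). Xpc, the damage sensor of the same pathway (chr6, 91489305 to 91515888), had 8.03, 7.90 and 7.80 in the 1D11_radiation tumors and 7.80, 8.01 and 8.24 in the radiation tumors. It had 8.16, 8.34 and 8.14 in the 1D11 tumors and 8.01, 8.13 and 8.02 in the control tumors. Of the radiation comparisons, the one under 1D11 was without overlap for Xpc, at -0.31 ± 0.11 (adjusted p = 0.213), and over both antibodies it had -0.17 ± 0.08 (adjusted p = 0.2). Polk, a polymerase that copies across damage (0.20 ± 0.10), Ddb2, the sensor of UV lesions (-0.09 ± 0.11), and Rrm2b, a subunit of ribonucleotide reductase that p53 induces (-0.13 ± 0.08), did not pass, and Polk had 0.10 ± 0.06 and Ddb2 -0.04 ± 0.11 without that tumor.

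Among the 6 tested genes of other roles, Dcxr rose and Sesn1 fell, against 3.39% and 3.87% of all genes. Dcxr, a dicarbonyl and xylulose reductase (chr11, 120724546 to 120727284), had 9.12, 9.70 and 9.30 in the 1D11_radiation tumors and 9.09, 9.22 and 8.88 in the radiation tumors, against 8.97, 8.74 and 8.90 in the 1D11 tumors and 7.96, 8.63 and 8.83 in the control tumors. Only radiation replicate 3 lay within the range of the unirradiated tumors. It rose by 0.55 ± 0.15 over both antibodies (adjusted p = 0.0466).

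Sesn1 encodes sestrin 1, a p53-induced inhibitor of mTORC1 signalling (chr10, 41810574 to 41908436). Sesn1 had 9.72, 10.10 and 9.84 in the 1D11_radiation tumors and 9.61, 9.75 and 9.75 in the radiation tumors, against 10.32, 10.43 and 10.31 in the 1D11 tumors and 10.27, 9.91 and 10.12 in the control tumors. Under each antibody the irradiated tumors lay below their unirradiated counterparts without overlap, while over both antibodies 1D11_radiation replicate 2 lay within the range of the controls. Sesn1 fell by 0.43 ± 0.08 on the log2 scale over both antibodies (adjusted p = 0.0109). It had -0.47 ± 0.11 under 1D11 (adjusted p = 0.0985) and -0.40 ± 0.11 under 13C4 (adjusted p = 0.0819). The cytokine gene Lif (0.58 ± 0.30), the thiamine transporter gene Slc19a2 (0.20 ± 0.12), the ribosomal protein paralog gene Rps27l (0.13 ± 0.04, adjusted p = 0.084) and the early response gene Ier5 (0.12 ± 0.09) did not pass. With control replicate 1 left out, Lif had 0.32 ± 0.22, Slc19a2 0.07 ± 0.05 and Ier5 0.05 ± 0.06. Trp73, which encodes the p53 relative p73, lay between 4.34 and 4.70 in all 12 tumors.

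Split by antibody, radiation called 3 members under 13C4 (Mdm2, Aen and Tnfrsf10b, all higher), against 2.39% of all genes called, 1.48% as higher. It called none under 1D11, where 0.0785% of all genes were called. At an unadjusted p under 0.05, 4 members were higher and 2 lower under 1D11, against 5.21% and 10.3% of all genes. Under 1D11, 27 of 34 members were higher with a median of 0.12, whereas 42.4% of all genes were higher, at a median of -0.03. Under 13C4, 25 were higher with a median of 0.38, against 49.6% of all genes and a median of 0.00. Without control replicate 1 the 13C4 median was 0.13, with 4 members called (Mdm2, Aen, Tnfrsf10b and Cdkn1a) against 3.42% of all genes, and 3 members were called under 1D11 (Cdkn1a, Mdm2 and Pmaip1) against 1.78%. The median under 1D11 was 0.12 with or without it.

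**Figure D4:**
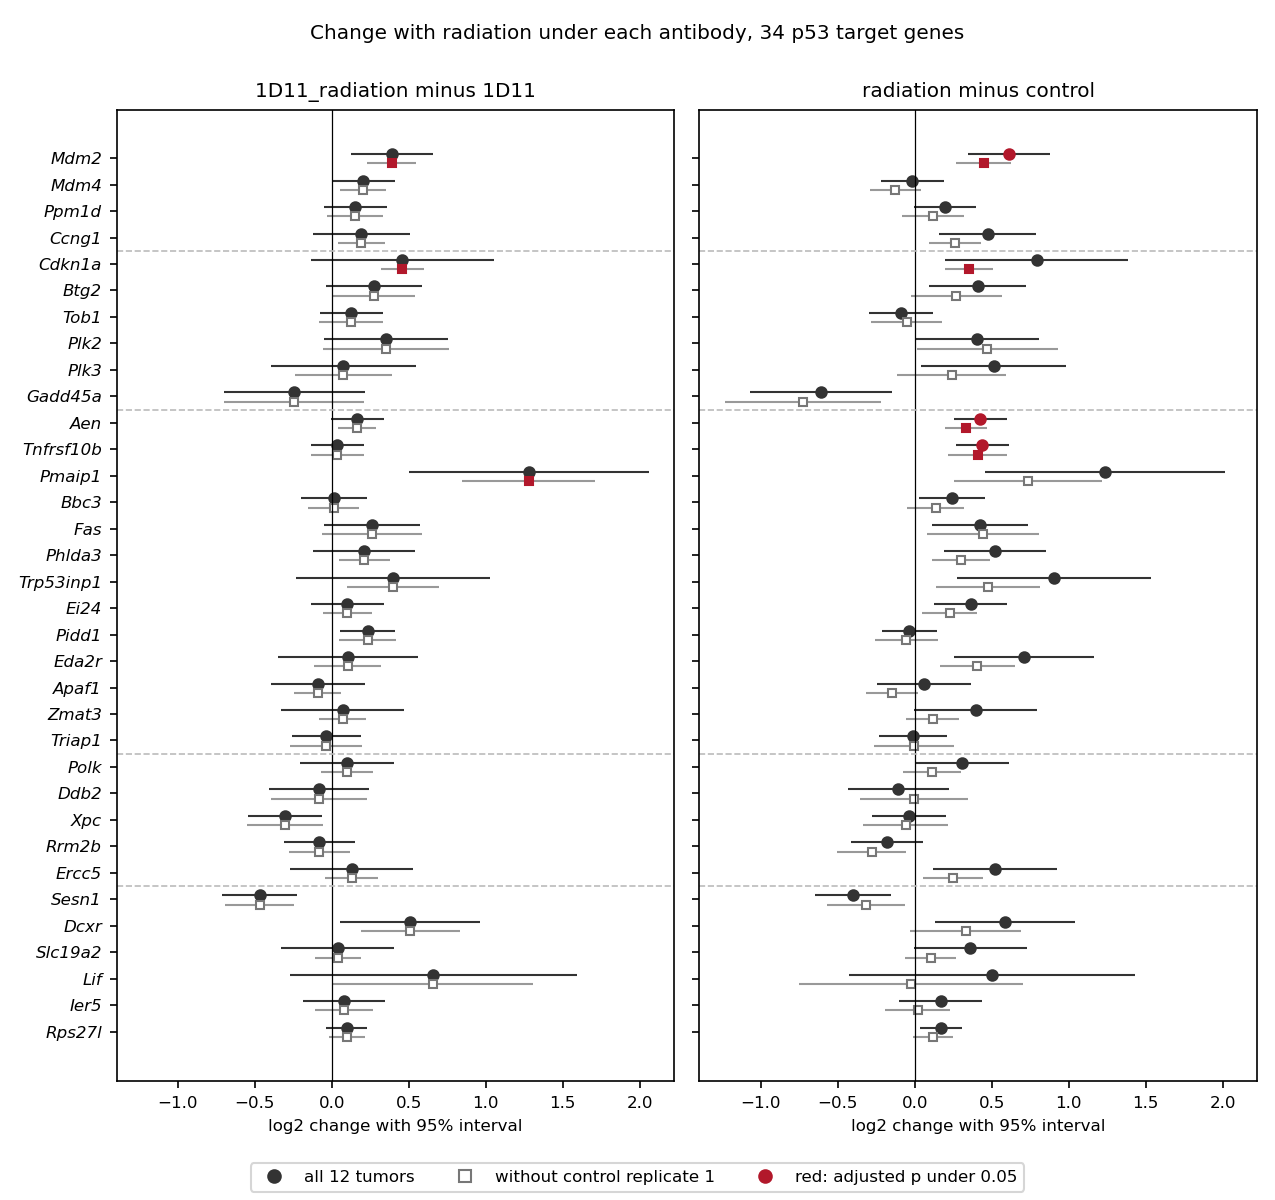
Log2 change with 95% interval for the 34 tested members, under 1D11 (left) and under 13C4 (right), with all 12 tumors (circles) and without control replicate 1 (squares); red marks members past an adjusted p of 0.05. Mdm2, Aen and Tnfrsf10b are red at right with all tumors, none is red at left, and without control replicate 1 Cdkn1a, Mdm2 and Pmaip1 are red at left.

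The test of whether 1D11 altered the radiation effect, the interaction, called no member (limma, 0 of 34, against 0% of all genes). At an unadjusted p under 0.05, 1 member was higher (Pidd1, 0.27 ± 0.12) and 2 lower (Tnfrsf10b and Aen, -0.26 ± 0.11 for Aen and -0.17 ± 0.08 without control replicate 1), against 2.38% and 5.10% of all genes. Of the 34 interactions 26 were below 0, with a median of -0.16, against 57.8% of all genes and a median of -0.03. Without control replicate 1, 21 were below 0, the median was -0.05 and none was called, against 0.165% of all genes. Of all genes 42.7% were above 0 in that fit.

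1D11 alone against control called no member (limma), with 0.0157% of all genes called. By unadjusted p under 0.05, 6 members were higher and 0 lower, against 9.01% and 5.12%. Of the 34 members 28 were higher, with a median of 0.21, against 62.1% of all genes and a median of 0.04. Without control replicate 1 the median was 0.05 with 22 of 34 higher, near the 62.6% of all genes. Eda2r had the largest change, 0.64 ± 0.21 (adjusted p = 0.219; 0.34 ± 0.11 without that tumor), and Aen had 0.24 ± 0.08 (adjusted p = 0.226; 0.14 ± 0.06 without it). Leaving that tumor out moved 28 of the 34 changes by over 1.5 times and turned the sign of 8. In 5 members the 1D11 tumors lay above the control tumors without overlap and in 1 below, against 12.1% and 6.95% of all genes. In irradiated tumors, 1D11_radiation against radiation called none of the members and no gene at all, with 0 higher and 1 lower at an unadjusted p under 0.05 (Tnfrsf10b, -0.32 ± 0.08, adjusted p = 0.84), against 2.74% and 2.66% of all genes. The 95% interval of that difference ran from -0.28 to 0.25 for Mdm2, from -0.63 to 0.56 for Cdkn1a and from -0.52 to 1.04 for Pmaip1. In this comparison 2 members lay higher without overlap (Apaf1 and Mdm4) and 2 lower (Bbc3 and Tnfrsf10b), against 7.30% and 6.12% of all genes. Over both radiation states, the 1D11 antibody against 13C4 called no member, against 0.00785% of all genes. Of the members 5 were higher and 0 lower at an unadjusted p under 0.05, against 7.77% and 4.72%. No member separated the antibodies in all 12 tumors, against 0.353% of genes higher and 0.298% lower.

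The combined treatment, 1D11_radiation against control, called Dcxr (0.90 ± 0.21, adjusted p = 0.0492), Mdm2 (0.60 ± 0.12, adjusted p = 0.0363) and Aen (0.40 ± 0.08, adjusted p = 0.0307), all higher, against 2.35% of all genes. This comparison shares its control tumors with the one of radiation alone, where the values were 0.59 ± 0.21, 0.61 ± 0.12 and 0.43 ± 0.08. Without control replicate 1, 2 of the members (Mdm2 and Aen) were called, against 1.42%, and Dcxr had 0.64 ± 0.16 (adjusted p = 0.0822) and, in radiation alone against control, 0.33 ± 0.16. In 17 members the 1D11_radiation tumors lay above the controls without overlap, against 14.7% of all genes.

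Other genes of the pathway were read from 3 lists. These were chosen with earlier results of these data known, so their counts are a description. Of 30 further p53 targets 26 were tested, and over both antibodies 6 rose and 2 fell, against 3.39% and 3.87% of all genes, at a median of 0.17. The detoxifying hydrolase gene Ephx1 rose by 1.17 ± 0.20 (adjusted p = 0.00888), the ERK phosphatase gene Dusp5 by 0.73 ± 0.12 (adjusted p = 0.00786) and the EGF receptor ligand gene Tgfa by 0.69 ± 0.11 (adjusted p = 0.00813). The others that rose were the kinase gene Ak1 (0.79 ± 0.21), the adhesion gene Ninj1 (0.34 ± 0.07) and Gtse1, whose protein returns p53 to the cytoplasm (0.31 ± 0.06). The translesion polymerase gene Rev3l (-0.30 ± 0.05) and Trp53i13 (-0.40 ± 0.08) fell. Under 13C4 alone 4 of the 26 rose (Tgfa, Gtse1, Dusp5 and Ephx1), against 1.48% of all genes. Under 1D11 none was called, with 4 higher and 3 lower at an unadjusted p under 0.05, against 5.21% and 10.3% of all genes. The counts over both antibodies were 8 higher and 2 lower without control replicate 1, against 3.45% and 4.17%.

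Of 25 regulators upstream of p53, 20 were tested, and over both antibodies 1 rose, the transcriptional repressor gene Bcl6 (0.45 ± 0.10, adjusted p = 0.0254), a count near the 3.39% of all genes that rose. The damage kinase gene Atr had 0.20 ± 0.05 (adjusted p = 0.0507), and the list median was -0.01. Of 22 cell cycle genes that p53 is known to lower through the DREAM complex, 21 were tested and 20 were higher over both antibodies, against 45.3% of all genes, at a median of 0.11 with none called. Of these, 2 were higher and 0 lower at an unadjusted p under 0.05, near the 10.8% of all genes that were higher at that p. Without control replicate 1, 5 of the 21 were called higher over both antibodies, against 3.45% of all genes. They were higher in 21 of 21 cases in radiation against control tumors, against 49.6% of all genes (median 0.18, none called, 8 higher at an unadjusted p under 0.05, against 10.0%). They were higher in 11 of 21 in 1D11_radiation against 1D11 tumors, against 42.4% (median 0.01, none called and none at an unadjusted p under 0.05). Without control replicate 1, which had their highest score of the 12 tumors (0.12, against -0.18 and -0.33 in the other controls), the median under 13C4 was 0.32 and 8 of 21 were called higher, against 2.02% of all genes. The mitotic cyclin gene Ccnb2 was the only one called with all tumors, in 1D11_radiation against control (0.43, adjusted p = 0.0254). The cell cycle interaction was below 0 in 20 of 21 cases, at a median of -0.21 with none called (21 of 21 and -0.32 without that tumor), against 57.8% of all genes.

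**Figure D5:**
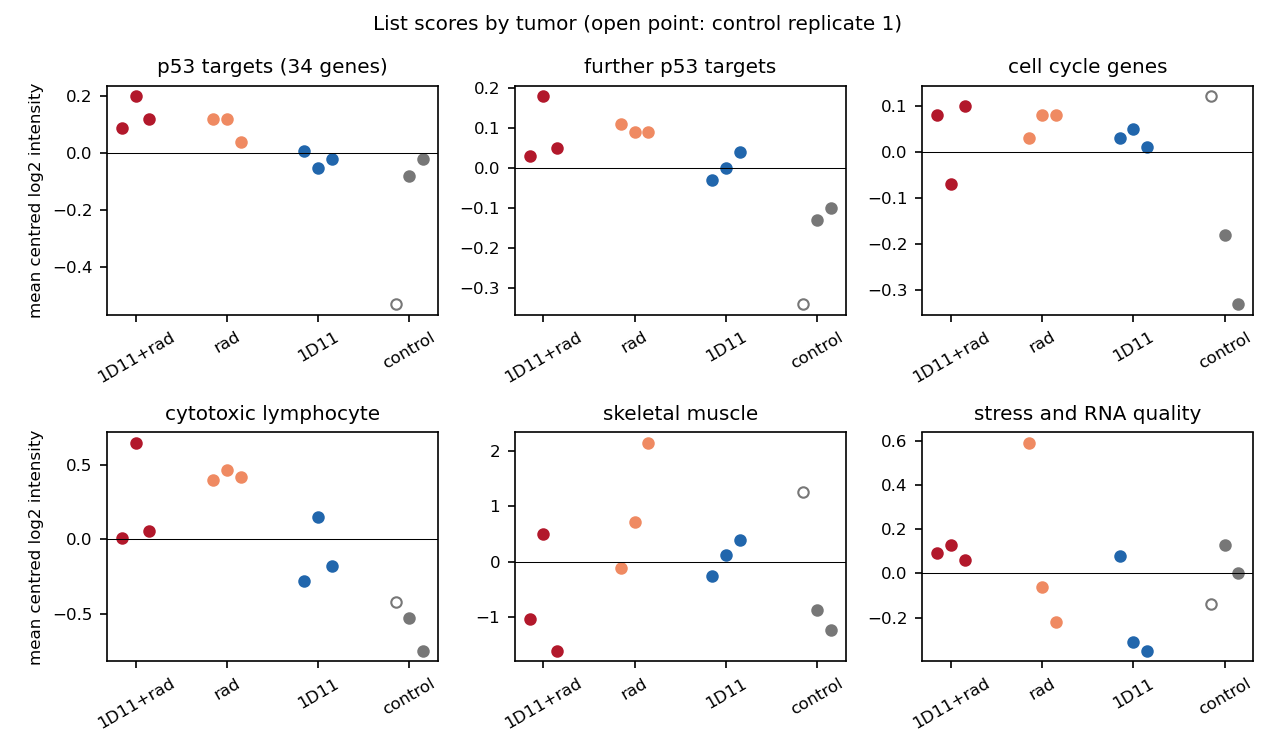
Mean centred log2 intensity of gene lists in each tumor (points), by group: the 34 tested p53 targets, further p53 targets, cell cycle genes, and markers of cell types and stress. The p53 target score of control replicate 1 (open point) is -0.53, against 0.04 to 0.20 in the 6 irradiated tumors.

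Markers of cell types moved with radiation in the same tumors, with calls under 13C4. In 1D11_radiation against 1D11 tumors no marker of these lists was called, against 0.0785% of all genes. There 6 of 6 tested cytotoxic lymphocyte, 3 of 4 T cell and 3 of 4 tumor cell markers were higher, against 42.4% of all genes. Lower there were 8 of 9 macrophage, 5 of 6 endothelial and 8 of 8 fibroblast markers, against 57.6% of all genes. So were 10 of 10 skeletal muscle and 5 of 5 keratinocyte markers. All 7 cytotoxic lymphocyte markers were measured, and their summed intensity was 731 to 1210 in the 1D11_radiation tumors and 1051 to 1138 in the radiation tumors, against 572 to 804 in the 1D11 tumors and 393 to 542 in the control tumors. Of the 6 that were tested, 6 were higher in radiation than in control tumors, where 49.6% of all genes were higher. Of these 4 rose (Ccl5, Klrd1, Gzmb and Gzma), against 1.48% of all genes. All 9 macrophage markers were higher in radiation than in control tumors, against 49.6% of all genes. Of them Mrc1 (1.14 ± 0.15), Fcgr1 (0.84 ± 0.13) and Itgam (0.59 ± 0.13) rose, against 1.48% of all genes. They summed to 16428 to 23670 in the 1D11_radiation and 20905 to 23130 in the radiation tumors, against 19119 to 23855 in the 1D11 and 14562 to 18322 in the control tumors. Of 8 T cell markers 7 were measured and 4 tested. In radiation against control tumors 2 of the 4 were higher and 2 lower, and only Cd3d rose (0.69 ± 0.13), against 1.48% of all genes. The T cell sum was 363 to 399 in the 1D11_radiation and 422 to 460 in the radiation tumors, against 340 to 370 in the 1D11 and 350 to 391 in the control tumors. The 7 endothelial markers summed to 994 to 1113 in the 1D11_radiation and 835 to 910 in the radiation tumors, against 1048 to 1261 in the 1D11 and 1032 to 1549 in the control tumors, and 3 of the 6 tested fell in radiation against control tumors (Egfl7, Tek and Vwf), against 0.911% of all genes. Of 8 fibroblast markers, Pdgfra (-0.98 ± 0.14) and Pdgfrb (-2.05 ± 0.32) fell in that comparison, and the list summed to 31607 to 49356 in the 1D11_radiation and 31703 to 50581 in the radiation tumors, against 46484 to 49648 in the 1D11 and 44341 to 54554 in the control tumors. All 4 tested tumor cell markers and all 10 skeletal muscle markers were also higher in that comparison, and 2 of 5 keratinocyte markers, against 49.6% of all genes. None of these was called. The 5 tumor cell markers summed to 30299 to 33572 in the 1D11_radiation and 32471 to 32757 in the radiation tumors. They summed to 27909 to 31910 in the 1D11 and 28841 to 29646 in the control tumors. The part of all these markers in the p53 target values was not tested. Radiation replicate 3 had the highest skeletal muscle score (2.14) and radiation replicate 1 the highest stress score (0.59). That tumor also had the highest Plk3 value of the 12, 8.65.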

How the data were processed

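The deposited table holds 1 linear intensity for each probe set and array, taken here as log2. How the authors corrected background, normalized and summarised is not given in the sources used here. Array medians of 62.3 to 66.1 and sorted log2 values that differed by at most 0.152 between arrays show that the deposited intensities had been scaled to each other. Per the labels' protocols, 6 µg of total RNA per tumor went into biotinylated cRNA. Of 45101 probe sets, 34945 have a single symbol, 932 several and 9160 none, and 64 controls were left out. The lowest 30 percent of gene means (log2 under 5.37) were not tested, which left 12735 genes. limma 3.58.1 in R 4.3.3 fitted 1 mean per group over 12 arrays (8 residual and 3.11 prior degrees of freedom), two-sided, with Benjamini-Hochberg adjustment over all genes tested and a threshold of 0.05. The interaction is the radiation effect under 1D11 minus that under 13C4. Precision is limited by having 3 arrays a group.

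The members and lists were chosen with earlier results of these data known. Values in every tumor are given for Mdm2, Cdkn1a, each member called in a comparison and the 2 members of each role with the smallest p over both antibodies. A list score averages the log2 values of its members after each was centred over the 12 arrays. With group means removed, the 18 pairs of same-numbered arrays had r between -0.31 and 0.27, 3 of them over 0.1, so numbers were not used as pairs. No array copied another (SD of log2 differences at least 0.175). The labels give no date or batch. Gene positions and promoters are from RefSeq, GRCm38.p6. Alternatives were quantile normalization, no filter, the mean of probe sets, an offset of 50, array weights, only the groups compared, a replicate block and arrays left out.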

Additional observations from a re-analysis of the deposited data

How the results depend on the processing

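Counts of called members depended on single tumors and on how the spread was estimated. For irradiated against unirradiated tumors (6 called) the count was 17 with array weights and 13 when control replicate 1 and radiation replicate 3, the arrays with the most muscle signal, were both left out. With 1 tumor left out it ran from 4 to 13, with 10 without control replicate 1 and 13 without control replicate 3. Mdm2, Aen, Pmaip1 and Sesn1 kept this call in all 19 alternatives (adjusted p up to 0.0286, 0.0491, 0.045 and 0.0339), while Dcxr lost it in 11 and Tnfrsf10b in 8. For radiation against control (3 called) the count was 0 with the mean of probe sets or only the groups compared, 8 with array weights and 5 without both arrays. It ran from 0 to 7 with 1 tumor left out, with 0 without radiation replicate 1 or 2, and 7 without control replicate 3. For 1D11_radiation against 1D11 (0 called) it was 5 with array weights, 1 with only the groups compared and 4 without both arrays, and 0 to 3 with 1 tumor left out, 3 without control replicate 1. For 1D11_radiation against control (3 called) it was 8 with array weights, 0 with only the groups compared, 0 with the replicate block, and 0 to 8 with 1 tumor left out: 8 without control replicate 3, 0 without radiation replicate 2 or any 1D11_radiation tumor, and 1 without 1D11 replicate 2 or 3 or radiation replicate 1. The cause was not tested. With the replicate block the other counts were 5 over both antibodies, 3 under 13C4 and 0 under 1D11. The remaining comparisons and the interaction had 0 members called in every alternative run.

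Of 709 alternative values of the named members, 609 kept direction and side of the threshold, 64 lost the call, 33 gained it and 3 changed sign. Tnfrsf10b under 1D11 ran from -0.016 (without 1D11 replicate 2) to 0.098 with a tumor left out. Xpc under 13C4 ran from -0.172 to 0.072 with 1 tumor, or the pair with most muscle signal, left out, and was above 0 without control replicate 2 (0.003) or radiation replicate 1 (0.072). Signal over background is not known per array, and Tnfrsf10b and Fas lay close to the filter.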

Other observations

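Some members are read by several probe sets, and these can differ from the one used above. Of the 36 members 22 have more than 1 single-symbol probe set. Over both antibodies 28 of the 35 other probe sets had the sign of the one used, and 7 the opposite. In a fit over all single-symbol probe sets, both other sets of Ccng1 rose in irradiated tumors, by 0.66 ± 0.13 (adjusted p = 0.0236, limma) and 0.48 ± 0.12 (adjusted p = 0.048), where the brightest had 0.33 ± 0.10 (adjusted p = 0.1). A second set of Ppm1d rose by 0.30 ± 0.07 (adjusted p = 0.0345), against 0.17 ± 0.07 for the one used. The second set of Tnfrsf10b had 0.14 ± 0.09 (adjusted p = 0.457), against 0.24 ± 0.06 for the one used, which missed the threshold in this fit (adjusted p = 0.0512). The second set of Cdkn1a had 0.65 ± 0.18, near the 0.63 ± 0.19 of the one used. The dimmer set of Ddb2 had 0.19 ± 0.07 (adjusted p = 0.158), against -0.09 ± 0.10 for the one used. Plk2 (-0.14 ± 0.11) and Ercc5 (-0.05 ± 0.09) also had another, dimmer set of opposite sign, as did Tob1, Apaf1, Mdm4 and Trp73. The sets used for Rps27l, Mdm4, Sesn1 and Ddb2 are of the kinds whose probes may also match related transcripts, so their values are uncertain in that respect. In the same limma fit, a Sesn1 set not of these kinds fell by 0.43 ± 0.09 (adjusted p = 0.0331). Another such set, which was dim, had -0.19 ± 0.07 (adjusted p = 0.206). The other sets of Rps27l had 0.21 ± 0.05 (adjusted p = 0.0312, a set of these kinds) and 0.15 ± 0.05 (adjusted p = 0.14).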
